A study of Mus musculus with 8 samples.

Results

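The heat shock genes described here encode chaperones of the cytosol and mitochondria in mouse liver: Hspa1b, Hspa8, Hsp90aa1, Hsp90ab1, Hsph1, Dnaja1, Dnajb1, Hspb1, Hspd1 and Hspe1. All probe sets whose array annotation names a single one of these 10 genes were taken, which gave 11 probe sets for 9 genes, of 12422 probe sets for 8251 genes on the array. Hsp90aa1 and Hspd1 had 2 probe sets each, and Hsp90ab1, for which no probe set names it alone, was not analysed here. The study switched on a stress kinase in liver with a drug rather than with heat, and the heat shock genes are read here beside the genes of that kinase's own response.

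Total RNA was hybridised to 8 Affymetrix oligonucleotide arrays, 2 in each of 4 groups: AP20187-treated Atf4-/-, AP20187-treated Atf4+/+, untreated Atf4-/- and untreated Atf4+/+. Every mouse, controls included, carried Ttr::Fv2E-Perk from a line with low expression, in which the promoter of transthyretin, a protein secreted by hepatocytes, drives a PERK kinase fused to a drug-binding module. AP20187 pairs up such modules and so activates the kinase, and the untreated mice are set against it as mock-injected in the series title. Atf4-/- mice come from a knockout strain for the transcription factor ATF4, and they and the Atf4+/+ mice were siblings on a mixed FvB/n and Swiss Webster background. Age, dose and time after injection are not given in the sources used here. Nothing in the labels states that replicate arrays are different mice, and p-values then measure only spread between these samples, which may be technical.

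In the heat shock response the transcription factor HSF1 binds heat shock elements, inverted repeats of the letters GAA, and raises chaperone genes when unfolded protein builds up in the cytosol. Hsp70 proteins bind unfolded stretches of other proteins, J proteins of the Dnaja and Dnajb families load them, Hsph1 helps them release nucleotide, and Hsp90 holds kinases and receptors in a state ready to act. Hspd1 and Hspe1 form the chaperonin inside mitochondria. The integrated stress response works differently: PERK and related kinases phosphorylate the initiation factor eIF2 alpha, most translation slows, and translation of ATF4 goes up, which raises genes of amino acid supply and regulators such as Ddit3 and Atf3.

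The DNA letters these factors read can be looked up in promoter sequence, and a few windows are printed to show both kinds of element. Sequences are from RefSeq on GRCm38.p6, 5′ to 3′ on the strand of the gene, and cover the 250 bases before an annotated transcript start. Capitals mark the heat shock element letters GAANNTTC or TTCNNGAA, or in the last pair the C/EBP-ATF element letters TGATGNAA or TTNCATCA. For Hspd1 and Hspe1, which lie head to head, the 215 bases between their starts are shown once on the strand of Hspe1.
Hspd1-Hspe1, chr1:55087933-55088147 (+): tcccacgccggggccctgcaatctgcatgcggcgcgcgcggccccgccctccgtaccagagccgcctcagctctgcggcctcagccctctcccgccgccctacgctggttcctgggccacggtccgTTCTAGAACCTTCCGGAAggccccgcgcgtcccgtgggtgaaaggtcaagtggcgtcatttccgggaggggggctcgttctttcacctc
Hspa1b, chr17:34959239-34959488 (-): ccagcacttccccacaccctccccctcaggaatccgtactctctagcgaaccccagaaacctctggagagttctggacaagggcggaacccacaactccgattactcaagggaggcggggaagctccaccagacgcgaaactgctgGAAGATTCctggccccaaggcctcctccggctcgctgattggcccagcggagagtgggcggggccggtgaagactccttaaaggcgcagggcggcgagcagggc
Hspb1, chr5:135887669-135887918 (+): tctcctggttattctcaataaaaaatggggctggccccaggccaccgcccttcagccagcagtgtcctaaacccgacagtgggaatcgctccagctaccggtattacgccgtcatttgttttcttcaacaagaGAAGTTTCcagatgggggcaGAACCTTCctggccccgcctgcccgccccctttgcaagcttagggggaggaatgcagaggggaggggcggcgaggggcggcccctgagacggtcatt
Dnaja1, chr4:40722218-40722467 (+): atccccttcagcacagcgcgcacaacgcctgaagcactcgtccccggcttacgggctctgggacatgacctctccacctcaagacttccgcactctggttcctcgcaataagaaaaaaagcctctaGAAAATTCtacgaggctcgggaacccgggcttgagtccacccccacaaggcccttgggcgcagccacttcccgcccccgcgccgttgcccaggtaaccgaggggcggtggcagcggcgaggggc
Nupr1, chr7:126625471-126625720 (-): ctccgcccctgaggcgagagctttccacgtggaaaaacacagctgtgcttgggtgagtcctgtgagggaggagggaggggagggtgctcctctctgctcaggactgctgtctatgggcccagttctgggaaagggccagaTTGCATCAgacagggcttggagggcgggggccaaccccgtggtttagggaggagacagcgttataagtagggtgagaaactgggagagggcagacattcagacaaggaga
Atf3, chr1:191183334-191183583 (-): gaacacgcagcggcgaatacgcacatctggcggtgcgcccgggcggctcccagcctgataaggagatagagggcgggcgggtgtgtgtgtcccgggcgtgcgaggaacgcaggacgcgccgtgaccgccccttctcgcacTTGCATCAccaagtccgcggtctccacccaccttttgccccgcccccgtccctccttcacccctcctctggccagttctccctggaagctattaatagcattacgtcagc

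In the Hspd1-Hspe1 stretch 3 heat shock elements overlap, so that the 3-repeat forms TTCTAGAACCTTC and GAACCTTCCGGAA begin 89 and 84 bases before the Hspe1 start. Across all 32851 windows in the table, 12.8% held the 8-letter element on either strand and 0.466% the form with 3 repeats (GAANNTTCNNGAA or TTCNNGAANNTTC). Of the heat shock genes 7 had an entry in that table, with 12 windows, and 7 of these 12 windows held the 8-letter element, overlapping windows of 1 gene and of the shared Hspd1-Hspe1 stretch counted each. They belong to 6 genes, Hspa1b, Hsph1, Dnaja1, Hspb1, Hspd1 and Hspe1. The letters of the element were not in the Dnajb1 windows. The C/EBP-ATF element, which ATF4 binds together with C/EBP proteins, was in 3.45% of windows, those of Nupr1 and Atf3 among them; its letters were not in the windows of Ddit3 and Trib3. These matches describe letters and do not show that a factor bound there.

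Each deposited value is a linear ratio whose divisor is not stated. Most probe sets had a median near 1 over the 8 arrays, so 1 is read here as a gene's middle array. Absolute levels are not known. All 9 genes were represented by a probe set with a median ratio of at least 0.99. Tests were run with limma on log2(ratio + 0.1), which understates changes of low ratios, and p-values were adjusted over all 12422 probe sets. The log2 ratios of replicate arrays correlated across probe sets at 0.365 in treated Atf4-/-, 0.312 in treated Atf4+/+, 0.26 in untreated Atf4-/- and 0.268 in untreated Atf4+/+ livers, and probe sets are not independent replicates. Of 10 hepatocyte markers, 9 were measured, each with a median ratio of at least 0.99, although ratios cannot show how abundant a marker was. The 5′ minus 3′ log2 difference of beta-actin control probe sets, a sign of RNA integrity, was -0.54 in treated Atf4+/+ replicate 2 and between -0.17 and 0.12 in the other 7 arrays. For Gapdh control probe sets it ran from -0.05, in that same array, to 0.12 over the 8 arrays.

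Some labels are in doubt. The ratio of Atf4 was 0.25 and 0.33 in treated Atf4-/- livers and 4.17 and 5.75 in treated Atf4+/+ livers. In untreated livers it was 0.29 and 1.67 in those labelled Atf4-/- and 2.36 and 0.30 in those labelled Atf4+/+. Replicate 2 of both untreated groups thus lay opposite to its genotype label. For untreated Atf4+/+ replicate 1 the source name gives the genotype but no treatment, and the description was used. For untreated Atf4-/- replicate 1 the source name says Atf4-/- and the description Atf4+/+, and the source name was used. The AP20187 changes and medians of the heat shock genes are therefore also given without replicate 2 of both untreated groups.

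The first question was whether AP20187 changed the heat shock genes, taking both genotypes together. None of their 11 probe sets passed the test in that comparison (0 of 11, limma adjusted p under 0.05), where 5 probe sets on the array did (0.0403%). At an unadjusted p under 0.05 the count was also 0 of 11, against 1405 probe sets or 11.3% of the array. The median log2 change of the 9 genes was 0.08, with 6 above 0 and 3 below, and that of all probe sets was -0.04. In none of them did all 4 treated livers lie above or below all 4 untreated livers, an order seen in 4.19% and 3.78% of the array.

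Hspa1b, a strongly heat-inducible Hsp70 gene, had ratios of 0.99 and 1.01 in treated Atf4-/-, 0.71 and 0.90 in treated Atf4+/+, 2.57 and 1.01 in untreated Atf4-/- and 0.79 and 1.02 in untreated Atf4+/+ livers. The high value was a single untreated liver, and the other 7 lay close together. The log2 change with AP20187 was -0.40 ± 0.30 (SE, 4 treated against 4 untreated arrays, limma adjusted p = 0.642). Its 95% interval ended at 0.32, a fold of 1.25. This rests on 1 array: without untreated Atf4-/- replicate 1 the change was -0.08, and without untreated Atf4-/- replicate 2 it was -0.71. Hspa1a, a nearly identical neighbour whose probes may read the same RNA, had 0.58 and 2.06 in treated Atf4-/-, 0.89 and 2.73 in treated Atf4+/+, 2.09 and 0.62 in untreated Atf4-/- and 0.82 and 1.11 in untreated Atf4+/+ livers. Its replicates were spread as widely as its groups, and the change was 0.31 ± 0.57 (SE, limma adjusted p = 0.861).

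Hspa8, the constitutive Hsp70 of the cytosol, had 1.21 and 1.03 in treated Atf4-/-, 0.97 and 0.71 in treated Atf4+/+, 1.25 and 0.68 in untreated Atf4-/- and 1.10 and 0.61 in untreated Atf4+/+ livers. The treated livers lay inside the range of the untreated ones. Its change was 0.13 ± 0.27 (SE, limma adjusted p = 0.881). Hsph1, the Hsp110 exchange factor of Hsp70, had 1.29 and 1.17 in treated Atf4-/-, 0.94 and 0.95 in treated Atf4+/+, 1.58 and 0.73 in untreated Atf4-/- and 1.05 and 0.74 in untreated Atf4+/+ livers. Here too every treated value lay between the lowest and highest untreated one, with a change of 0.13 ± 0.26 (SE, limma adjusted p = 0.874).

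In neither J protein gene did treated livers stand clear of untreated ones. Dnaja1 had 1.12 and 1.01 in treated Atf4-/-, 0.99 and 0.76 in treated Atf4+/+, 1.02 and 0.86 in untreated Atf4-/- and 1.10 and 0.83 in untreated Atf4+/+ livers. Its change of 0.02 ± 0.17 (SE, limma adjusted p = 0.97) had a 95% interval of -0.40 to 0.44, among the narrower ones of the set. Dnajb1, the heat-inducible Hsp40, had 1.42 and 1.37 in treated Atf4-/-, 0.85 and 0.94 in treated Atf4+/+, 1.41 and 0.49 in untreated Atf4-/- and 0.86 and 1.06 in untreated Atf4+/+ livers. Both treated Atf4-/- livers were high, but so was 1 untreated Atf4-/- liver. The change over both genotypes was 0.29 ± 0.31 (SE, limma adjusted p = 0.742).

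Hsp90aa1 encodes the inducible cytosolic Hsp90. Its first probe set, with a median ratio of 1, had 1.19 and 0.97 in treated Atf4-/-, 0.99 and 1.01 in treated Atf4+/+, 1.61 and 0.94 in untreated Atf4-/- and 1.37 and 0.54 in untreated Atf4+/+ livers. Treated livers clustered near 1 while untreated ones spread to both sides, and the change was -0.00 ± 0.31 (SE, limma adjusted p = 1.0). The other probe set, whose median ratio was 0.71, had 0.93 and 1.94 in treated Atf4-/-, 0.71 and 0.68 in treated Atf4+/+, 0.27 and 0.74 in untreated Atf4-/- and 0.50 and 0.71 in untreated Atf4+/+ livers. Its change over both genotypes was 0.78 ± 0.34 (SE, limma adjusted p = 0.461). The probe sets of this gene thus disagree in size, and for AP20187 in Atf4-/- livers also in sign (-0.18 and 1.38). Neither passed the test.

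Hspb1, the small heat shock protein Hsp25, had the widest replicate spread of the set. Its ratios were 0.64 and 0.61 in treated Atf4-/-, 0.25 and 1.79 in treated Atf4+/+, 0.93 and 1.07 in untreated Atf4-/- and 1.42 and 1.74 in untreated Atf4+/+ livers. The treated Atf4+/+ pair held both the lowest and the highest of the 8 values. A change of -0.82 ± 0.50 (SE, limma adjusted p = 0.574) and an interval of -2.04 to 0.40 leave its size poorly determined.

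The mitochondrial chaperonin genes were among the steadiest. Hspd1, its large subunit, had 1.0 and 1.09 in treated Atf4-/-, 1.22 and 1.01 in treated Atf4+/+, 0.96 and 0.98 in untreated Atf4-/- and 1.31 and 0.84 in untreated Atf4+/+ livers. Hspe1, the co-chaperonin that shares the promoter stretch above, had 1.05 and 1.10 in treated Atf4-/-, 1.14 and 0.94 in treated Atf4+/+, 0.95 and 0.88 in untreated Atf4-/- and 1.11 and 0.80 in untreated Atf4+/+ livers. Treated and untreated livers overlapped in both genes. The changes were 0.08 ± 0.18 for Hspd1 (SE, limma adjusted p = 0.888) and 0.17 ± 0.17 for Hspe1 (SE, limma adjusted p = 0.722). Their intervals end at folds of 1.44 and 1.48. The second Hspd1 probe set had 0.81 and 0.65 in treated Atf4-/-, 0.96 and 1.04 in treated Atf4+/+, 0.24 and 1.09 in untreated Atf4-/- and 1.19 and 1.19 in untreated Atf4+/+ livers, with a change of 0.07 ± 0.39. Its low value of 0.24, in untreated Atf4-/- replicate 1, has no match in the first Hspd1 probe set.

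**Figure D1:**
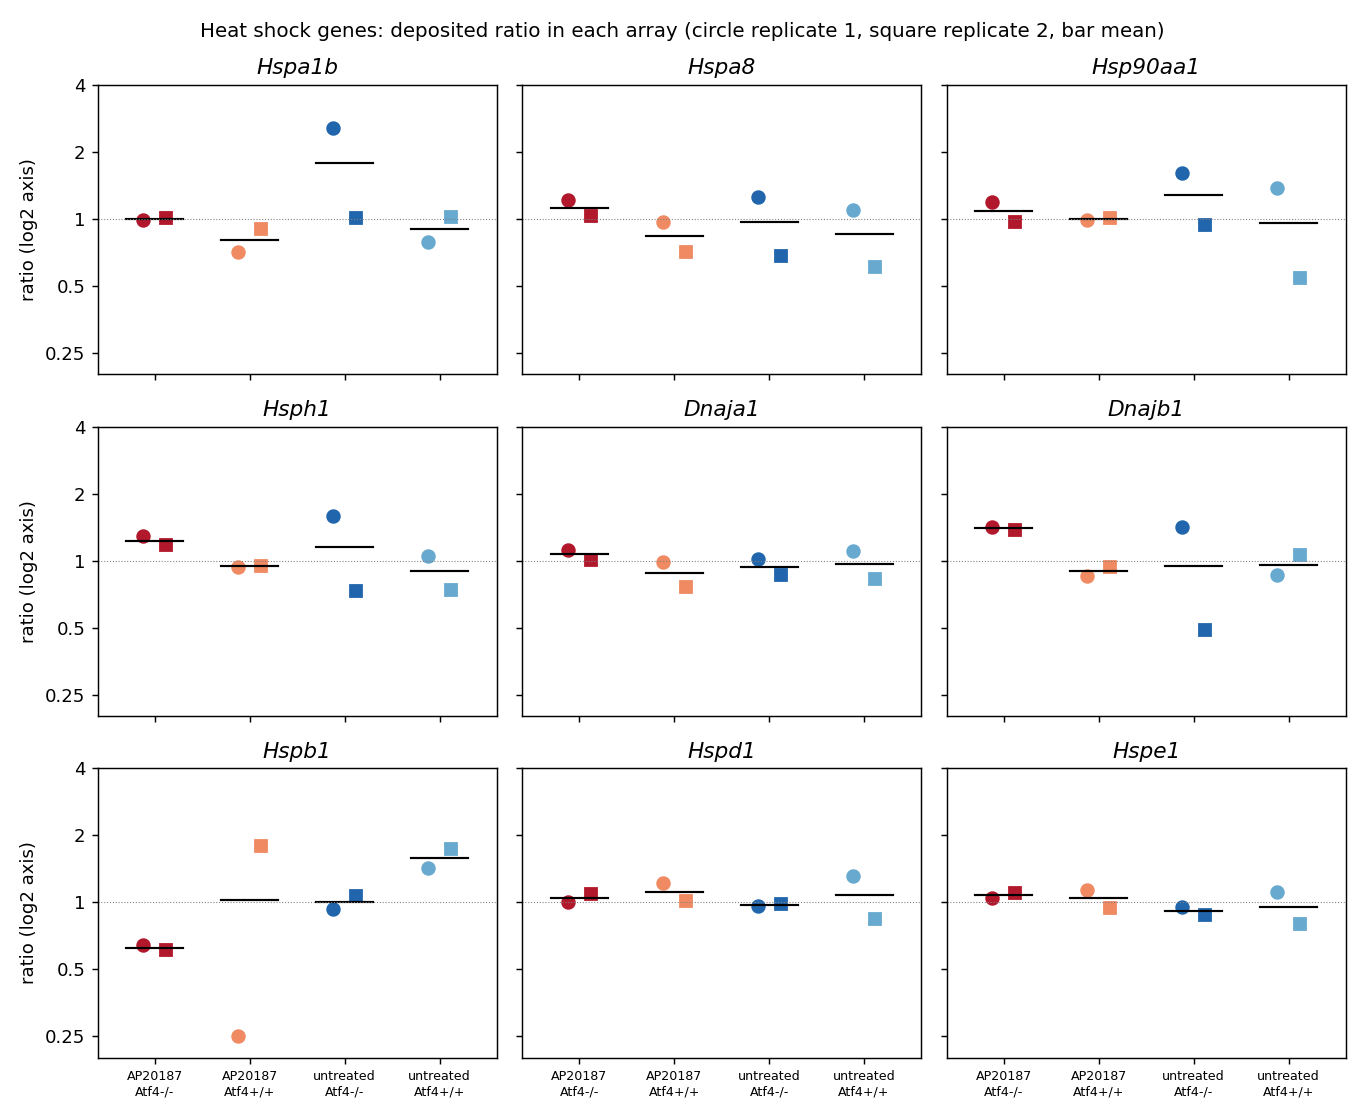
Ratios of the heat shock genes in each of the 8 arrays on a log axis, by group, with treated groups left of untreated ones; circles are replicate 1, squares replicate 2 and bars group means. Treated and untreated livers overlap in every gene, and Hspb1 spans from 0.25 to 1.79 within treated Atf4+/+ livers.

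**Figure D2:**
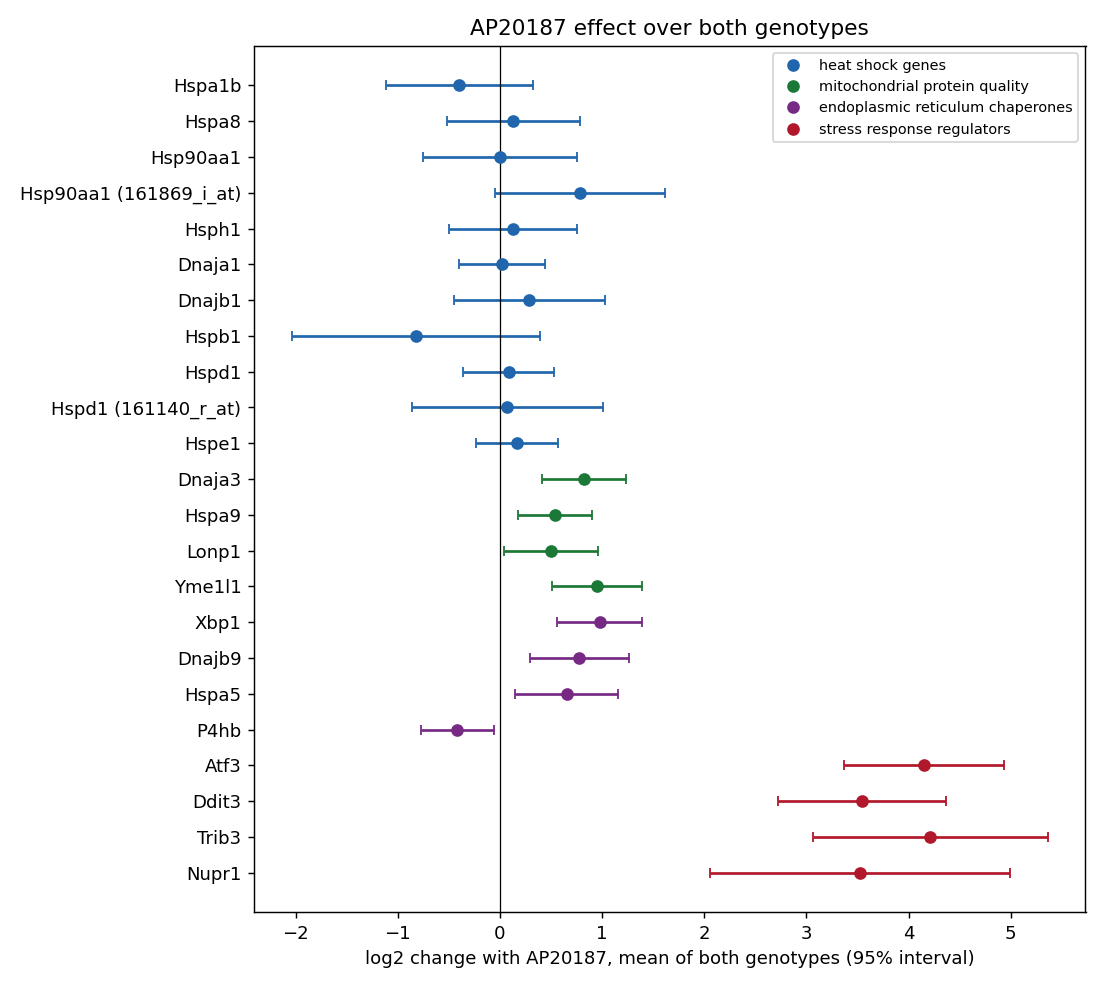
Log2 change with AP20187 over both genotypes for each heat shock probe set and for named genes of mitochondrial protein quality, the endoplasmic reticulum and the stress regulators, with 95% intervals. The intervals of all 11 heat shock probe sets include 0, while Atf3, Ddit3 and Trib3 lie between 3.55 and 4.21.

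The second question was whether the genotype mattered. In AP20187-treated Atf4-/- livers the median change of the 9 genes against untreated Atf4-/- livers was 0.17 (all probe sets -0.02), and 0 of 11 probe sets passed, as on the whole array (0%, limma). The Hsp90aa1 probe set with the low median ratio was the 1 of 11 with an unadjusted p under 0.05 there (922 probe sets or 7.42% of the array), at 1.38 ± 0.49 (SE, limma adjusted p = 0.635). The first probe set of the same gene was at -0.18 ± 0.44. In Atf4+/+ livers the median was 0.01 (all probe sets -0.06), and 0 of 11 probe sets passed, against 1 on the array (0.00805%). At an unadjusted p under 0.05 it was again 0 of 11, with 1130 on the array (9.1%). The difference between these effects had a median of 0.09 (all probe sets 0.04). It passed in 0 of 11 (limma, 0% of the array) and had an unadjusted p under 0.05 in 0 of 11 (678 on the array, 5.46%).

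Among treated livers the 9 genes stood 0.27 higher in Atf4-/- than in Atf4+/+ at the median, with 7 above 0, against 0.04 for all probe sets. Both Atf4-/- livers lay above both Atf4+/+ livers in 5 of 9 genes, namely Hspa1b, Hspa8, Hsph1, Dnaja1 and Dnajb1, an order found in 19.2% of the array. The reverse order was found in 0 of 9 genes and 15.3% of the array. Dnajb1 was at 0.59 ± 0.43 (SE, 2 against 2 arrays, limma adjusted p = 0.956) and Hspa8 at 0.39 ± 0.38 (SE, limma adjusted p = 0.962). The second Hsp90aa1 probe set, not counted in these medians, was at 0.87 ± 0.49 (SE, limma adjusted p = 0.952). No heat shock probe set passed the test or had an unadjusted p under 0.05 (0 of 11 for each, against 0% and 5.31% of the array, limma). Several of these genes are correlated and all share arrays, so 5 of 9 is not 5 separate observations. Some other lists lay on the same side: 9 of 9 hepatocyte markers were above 0, with a median of 0.20. In the list of endoplasmic reticulum chaperones 14 of 17 genes were, with a median of 0.30. Lists of related chaperones were mixed. Above 0 were 12 of 23 other Hsp70 system genes (median 0.03) and 7 of 10 Hsp90 cochaperones (0.02). The same held for 7 of 13 cytosolic chaperonin and prefoldin genes (0.07) and 2 of 4 small heat shock genes (-0.04). Of mitochondrial protein quality genes 4 of 11 were above 0 (-0.14), and of the heat shock factor list 0 of 3. Treated Atf4+/+ replicate 2, the array with the beta-actin value of -0.54 and a Gapdh value of -0.05, also had the lowest hepatocyte marker mean of the 8, at -0.25. The part of these in the heat shock values was not tested. Among untreated livers the median was -0.03 (all probe sets -0.01), 0 of 9 genes had both Atf4-/- livers above (15.5% of the array), and Hspb1 was the 1 gene with both below (16.4% of the array). There too 0 of 11 passed, and 0 of 11 had an unadjusted p under 0.05 (0% and 5.32% of the array, limma).

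The untreated pairs carried much of the spread. Untreated replicate 1 was above replicate 2 in 7 of 9 genes for Atf4-/- and 6 of 9 for Atf4+/+, and untreated Atf4-/- replicate 1 had the highest value of all 8 arrays in 4 genes. The median gap between replicates, on the log2 scale, was 0.13 in treated and 0.44 in untreated pairs for the 9 genes, against 0.32 and 0.33 for all probe sets. The mean log2 ratio of 10 of 10 Kupffer and myeloid markers ran from -0.04 to 0.36 in treated and from -0.23 to 0.53 in untreated livers, and that of 9 of 10 hepatocyte markers from -0.25 to 0.24 in treated and from -0.01 to 0.31 in untreated livers. Both were highest in untreated Atf4-/- replicate 1. The part of cell makeup in these gaps was not tested, and in tissue RNA fewer cells of a type and less RNA per cell cannot be told apart. The median AP20187 change of the 9 genes was also taken without both untreated arrays whose Atf4 ratio lay opposite to the label. It was -0.24 over both genotypes, -0.15 in Atf4-/- and -0.22 in Atf4+/+. With all 8 arrays these medians were 0.08, 0.17 and 0.01, so the sign of each had turned. Without those arrays the median was 0.22 for the difference of the effects. For untreated Atf4-/- against Atf4+/+ it was 0.17, where the sign had turned as well. Gene by gene, the change over both genotypes was then -0.63 for Hspa1b, -0.26 for Hspa8, -0.24 for Hsph1, -0.13 for Dnaja1, 0.02 for Dnajb1, -0.48 for Hsp90aa1, -0.70 for Hspb1, -0.055 for Hspd1 and 0.035 for Hspe1. The second probe sets of Hsp90aa1 and Hspd1 were then at 1.19 and 0.53. Left out alone, untreated Atf4+/+ replicate 2 or untreated Atf4-/- replicate 2 brought the median over both genotypes to -0.06 or -0.07, while without untreated Atf4+/+ replicate 1 it was 0.23.

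Some pairs of heat shock genes had similar patterns across the 8 arrays, which is a description only, since genes share arrays. Pearson's r was 0.90 between Hspa8 and Hsph1, 0.90 between Hspa8 and Dnaja1 and 0.82 between Hspa8 and Hsp90aa1. Hspd1 and Hspe1 had 0.88. The median over 36 pairs was 0.43, 14 of them lay above 0.5, and Hspb1 was below 0 with 7 of the other 8 genes. Outside the set, the genes closest to the mean pattern of the 9 genes, of 7864 compared, were Ambp at 0.93, Tubb5 at 0.93, Tgfb1i1 at 0.92, Maz at 0.90 and Api5 at 0.90.

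The regulators of the integrated stress response gave the contrast. Atf3, a transcription factor that stress induces, had ratios of 1.72 and 2.82 in treated Atf4-/-, 7.37 and 16.59 in treated Atf4+/+, 0.14 and 0.19 in untreated Atf4-/- and 0.28 and 0.15 in untreated Atf4+/+ livers. All 4 treated livers were above all 4 untreated ones. Atf3 rose by 4.15 ± 0.33 (SE, limma adjusted p = 0.037), though its call ended when any 1 of the 8 arrays was left out (adjusted p 0.0578 to 0.222, change 3.86 to 4.44) or both doubted arrays were (adjusted p 0.413, change 4.07). Its further probe sets gave 3.68 and -0.27. Ddit3, which encodes CHOP, had 1.70 and 2.52 in treated Atf4-/-, 3.12 and 5.95 in treated Atf4+/+, 0.30 and 0.11 in untreated Atf4-/- and 0.09 and 0.21 in untreated Atf4+/+ livers. Its difference of 3.55 ± 0.34 (SE, limma adjusted p = 0.0569) and that of Trib3, a pseudokinase induced by CHOP and ATF4, at 4.21 ± 0.48 (SE, limma adjusted p = 0.0786), did not pass. Nupr1 had 2.54 and 0.43 in treated Atf4-/-, 18.55 and 38.40 in treated Atf4+/+, 0.45 and 1.55 in untreated Atf4-/- and 0.15 and 0.15 in untreated Atf4+/+ livers. Its treated Atf4+/+ livers stood far above all others, and its treated Atf4-/- livers overlapped the untreated ones. The AP20187 effect on Nupr1 was lower in Atf4-/- than in Atf4+/+ livers by a log2 difference of -6.43 ± 1.22, which did not pass (SE, limma adjusted p = 0.594).

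The list of regulators, like the others, was chosen with earlier results of these data known. It had 10 of 14 measured, 9 above 0 and a median change of 2.26. Past the test was 1 (0.0403% of the array), and 9 had an unadjusted p under 0.05 (6.16% of the array upward and 5.15% downward). All 4 treated livers were above all 4 untreated ones in 8 of the 10, an order seen in 4.19% of the array. In the heat shock set the matching figures were 0 past the test, 0 at that p and 0 of 9 genes. Averaged in each array, the log2 level of the regulators was 0.76 and 0.67 in treated Atf4-/-, 1.67 and 2.05 in treated Atf4+/+, -1.01 and -0.74 in untreated Atf4-/- and -1.11 and -1.06 in untreated Atf4+/+ livers. The same mean of the heat shock genes was 0.24 and 0.17 in treated Atf4-/-, -0.09 and 0.10 in treated Atf4+/+, 0.48 and -0.10 in untreated Atf4-/- and 0.27 and -0.05 in untreated Atf4+/+ livers. The regulator means did not overlap between treated and untreated livers, and those of the heat shock genes did. The difference between the lists was not tested. Genes of amino acid synthesis (7 of 10 measured, median 0.52, 3 at an unadjusted p under 0.05, all above 0) and tRNA synthetases (18 of 20, median 0.53, 10 above 0 at that p) had medians between the regulators and the heat shock genes.

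**Figure D3:**
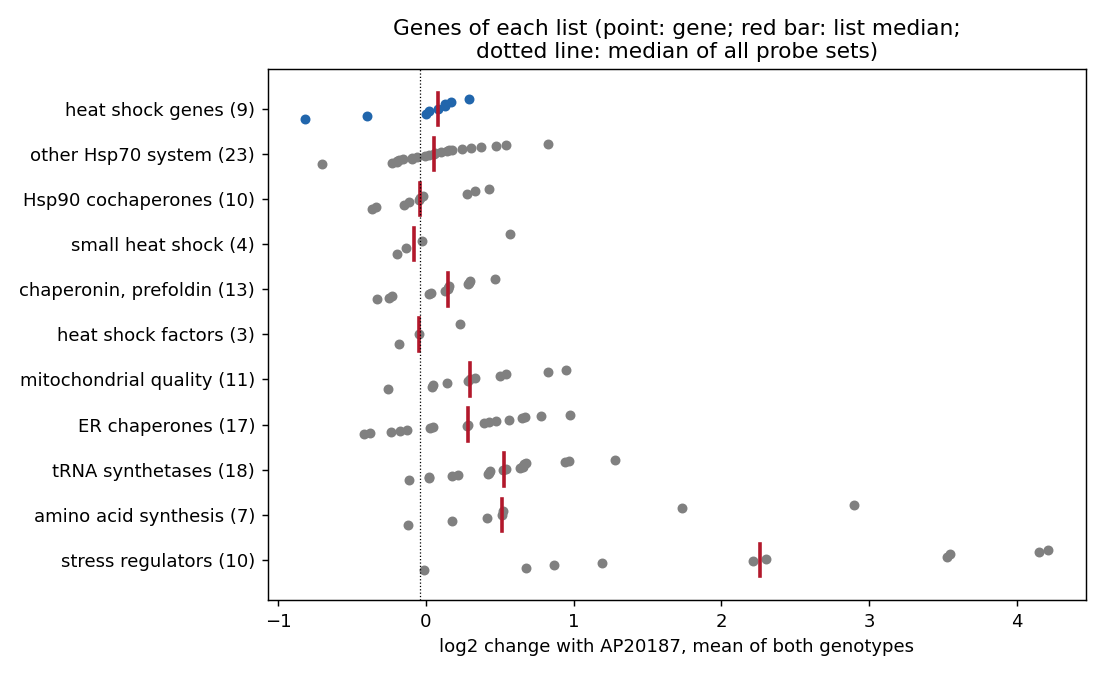
Log2 change with AP20187 over both genotypes for the genes of each list, a point per gene, with list medians as red bars and the median of all probe sets as a dotted line. The heat shock genes have a median of 0.08 and the stress regulators 2.26.

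**Figure D4:**
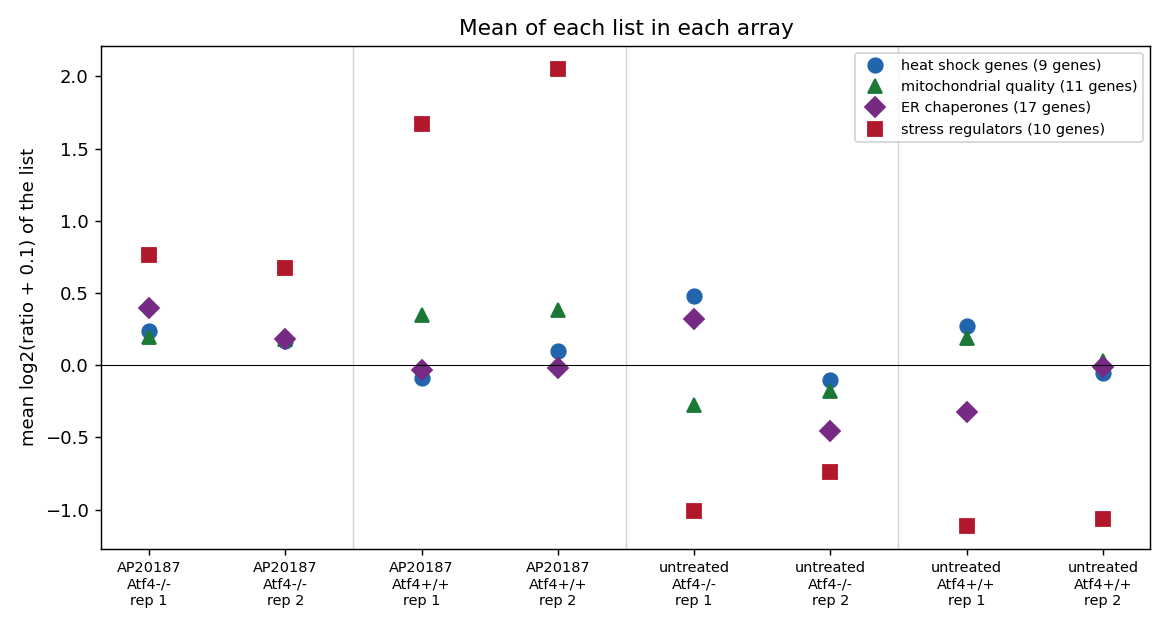
Mean log2(ratio + 0.1) in each array of the heat shock genes, mitochondrial protein quality genes, endoplasmic reticulum chaperones and stress regulators, treated groups left of untreated ones. The 4 treated arrays lie from 0.67 to 2.05 for the stress regulators, all above the untreated arrays, and from -0.09 to 0.24 for the heat shock genes, inside the untreated range.

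Other genes of the same machinery were read for comparison. Of the other Hsp70 system genes 23 of 28 were measured, with a median of 0.05 and none past the test. At an unadjusted p under 0.05, 3 of the 23 were above 0 (6.16% of the array). These were Dnaja3, Hspa9 and Dnajc2. Dnaja3, a mitochondrial J protein, had 1.14 and 1.14 in treated Atf4-/-, 1.22 and 1.52 in treated Atf4+/+, 0.64 and 0.55 in untreated Atf4-/- and 0.86 and 0.62 in untreated Atf4+/+ livers, so that all treated livers were above the untreated ones. Its difference was 0.83 ± 0.17 (SE, limma adjusted p = 0.221). Hspa9, the mitochondrial Hsp70, had 1.07 and 1.03 in treated Atf4-/-, 1.52 and 1.78 in treated Atf4+/+, 0.84 and 0.91 in untreated Atf4-/- and 0.97 and 0.79 in untreated Atf4+/+ livers, a difference of 0.54 ± 0.15 (SE, limma adjusted p = 0.315). The AP20187 effect on Hspa9 in Atf4-/- livers minus that in Atf4+/+ livers was -0.60 ± 0.30, which did not pass (SE, limma adjusted p = 0.94). Of 11 measured genes of mitochondrial protein quality, a list that also holds Dnaja3 and Hspa9, 10 were above 0, with a median of 0.30. The 4 with an unadjusted p under 0.05, all above 0 (6.16% of the array), included Dnaja3 and Hspa9, and none passed the test. The others were Lonp1, a protease of the matrix, at 0.50 ± 0.19 and Yme1l1, a protease of the inner membrane, at 0.95 ± 0.18, although second probe sets gave 0.19 and 0.12. The Yme1l1 value averages 2.04 ± 0.26 in Atf4-/- and -0.14 ± 0.26 in Atf4+/+ livers, a difference of 2.18 ± 0.37 that did not pass (SE, limma adjusted p = 0.55). Without both doubted arrays these changes over both genotypes were 0.68 for Dnaja3, 0.50 for Hspa9, 0.39 for Lonp1 and 1.15 for Yme1l1.

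Among Hsp90 cochaperones 10 of 13 were measured and the median was -0.04, with Sugt1 at 0.43 ± 0.18 and Fkbp4 at -0.34 ± 0.18 (SE, as for the values that follow). The cytosolic chaperonin and prefoldin genes had a median of 0.15 over 13 of 14, and Cct3 was at 0.46 ± 0.23, with its other probe sets at 0.38 and 0.03. Small heat shock genes had a median of -0.08 over 4 of 7, with Hspb8 at 0.57 ± 0.20. The heat shock factor list had 3 of 4 measured and a median of -0.05, namely Hsf2, Hsf4 and Hsbp1, while Hsf1 had no probe set naming it alone. The median ratios of Hsf2 (0.795) and Hsf4 (0.985) were below 0.99. None of the genes in these lists passed the test, and at an unadjusted p under 0.05 (11.3% of the array) only Hspb8 did among them. The list of endoplasmic reticulum chaperones also holds Xbp1, a transcription factor. Genes of this list had a median of 0.29 over 17 of 18, with 3 above and 1 below 0 at that p (6.16% and 5.15% of the array). P4hb, a protein disulfide isomerase, was the 1 below 0, at -0.42 ± 0.15, and its other probe set was at -0.05 ± 0.14. Those above included Xbp1 at 0.98 ± 0.17 and Hspa5, the Hsp70 of that compartment, at 0.65 ± 0.21 (SE, limma adjusted p = 0.182 and 0.376).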

How the data were processed

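Liver RNA was measured on 8 arrays, 2 in each of 4 groups. The deposited values, made by the authors, are linear ratios in steps of 0.01, most with a median near 1 over the 8 arrays; the summarisation, scaling and divisor are not given in the sources used here. Because the table holds a ratio and no signal, brightness and background are unknown. Precision is set by how few arrays there are.

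Of 12488 probe sets 66 controls were left out and 12422 were tested; 10833 named 1 gene, 396 several and 1193 none, and 10817 of them were matched by gene identifier. Groups came from the source names, except that of untreated Atf4+/+ replicate 1, which came from its description. The log2(ratio + 0.1) of all 8 arrays was fitted in limma 3.58.1 under R 4.3.3 with a mean for each of 4 groups (statmod 1.5.0 for array weights), and 6 contrasts were moderated by eBayes (4 residual and 2.37 prior degrees of freedom). Benjamini-Hochberg adjustment ran over all tested probe sets, and adjusted p under 0.05 counted as passing. The fit was tested on simulated data. Intervals cover 95%.

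Where a gene had several probe sets, the choice went to a median ratio of 0.99 or more, next to a plain name, and last to the least spread within groups. Every heat shock probe set is described. Of each other gene list at most 4 genes, those of lowest p for AP20187 over both genotypes, could be named, and of the regulators also Atf3, Ddit3, Trib3 and Nupr1. The genes nearest in pattern were the 5 of highest Pearson's r. The members and all lists were chosen with earlier results of these data known. Motifs were searched and figures drawn with Python 3.11.15, pandas 2.3.3 and matplotlib 3.10.9. The alternatives were other pseudocounts, normalizations, filters, moderation, array weights, groupings and leaving out arrays.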

Additional observations from a re-analysis of the deposited data

How the results depend on the processing

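The 2 arrays a group and the unknown signal over background limit every value here. The 95% intervals printed for Hspa1b, Dnaja1, Hspb1, Hspd1 and Hspe1 give the sizes that remain allowed for them. Over both genotypes the intervals of other probe sets ended at folds of 1.72 for Hspa8, 1.69 for Hsph1 and 2.04 for Dnajb1. Those of Hsp90aa1 ended at 1.68 and, for its second probe set, 3.06, and that of the second Hspd1 probe set at 2.01. No paired analysis was possible because the labels give the arrays no replicate numbers; they were numbered in accession order. Limiting the fit to the compared groups was not run for the effect over both genotypes or the difference of effects, which need all 4 groups. The count of heat shock probe sets past the test was 0 in all 112 combinations of comparison and setting. In many of these no probe set on the array passed, so no other count was possible there. AP20187 in Atf4-/- livers in the main fit is such a case. Of 1035 values recomputed under 19 alternatives, 942 kept their side of the threshold or moved by less than the spread; the cause of the other changes was not tested.

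The count of all probe sets past the test for AP20187 in Atf4+/+ (1) was 2 after quantile normalization, 8 with probe sets of a median ratio of at least 0.99, 0 with the compared groups alone, 17 with untreated Atf4-/- replicate 1 grouped by its description, 0 without both doubted arrays and 0 to 0 leaving out each array. Over both genotypes (5) it was 3 with a pseudocount of 0.02, 8 with 0.5, 12 after quantile normalization, 10 with the filter, 3 with array weights, 0 without both doubted arrays and 0 to 2 leaving out each array. For the difference of the effects (0) it was 2 with the filter.

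The median change of the heat shock genes without both doubted arrays was -0.22 in Atf4+/+, -0.15 in Atf4-/- and -0.24 over both. Grouping by the description gave 0.43 for the difference of the effects and -0.28 for untreated Atf4-/- against Atf4+/+. Leaving out each array gave -0.22 to 0.32 in Atf4+/+, -0.15 to 0.26 in Atf4-/-, -0.07 to 0.23 over both, -0.14 to 0.35 for the difference and -0.21 to 0.52 for the untreated genotypes.

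Single changes over both genotypes took the opposite sign without both doubted arrays for Hspa8 (-0.26), Hsph1 (-0.24), Dnaja1 (-0.13), Hspd1 (-0.055) and Cryab (0.071). Hsp90aa1, at -0.00, was 0.0082 with a pseudocount of 0.02, 0.041 after quantile normalization, 0.016 with arrays centred and 0.042 by the description, which also gave -0.058 for the second Hspd1 probe set and 0.28 for Hsf2. Hspb2 was 0.0064 after quantile normalization. Leaving out each array gave ranges that crossed 0 for Hspa8 (-0.069 to 0.33), Hsp90aa1 (-0.30 to 0.30), Hsph1 (-0.13 to 0.38), Dnaja1 (-0.072 to 0.11), Dnajb1 (-0.050 to 0.63), Hspd1 (-0.062 to 0.23, second probe set -0.38 to 0.53), Hsf4 (-0.066 to 0.53), Hsf2 (-0.53 to 0.44), Cryaa (-0.47 to 0.20), Hspb2 (-0.098 to 0.051), Cryab (-0.56 to 0.17) and Hspa1a (-0.11 to 0.72). Ddit3 passed with a pseudocount of 0.5, after quantile normalization and with the filter, and Trib3 after quantile normalization.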

Other observations

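The list of mitochondrial protein quality holds proteases and import chaperones of mitochondria. Among the untreated livers all 11 measured genes of mitochondrial protein quality lay below 0 for Atf4-/- against Atf4+/+, with a median of -0.12 (all probe sets -0.01). None passed the test, and 1 had an unadjusted p under 0.05 (limma, 5.32% of the array). Some lay close to 0, such as Hspa9 at -0.002 and Lonp1 at -0.05. Replicate 2 of both untreated groups, whose Atf4 ratio lay opposite to its label, is part of this comparison. Yme1l1 had 0.12 and 0.19 in untreated Atf4-/- and 1.0 and 1.36 in untreated Atf4+/+ livers on its chosen probe set, a log2 difference of -2.33 ± 0.26 (SE, limma adjusted p = 0.134), while its other probe set gave -0.29 ± 0.30.

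Median changes of the cell type marker lists with AP20187 over both genotypes are given with the number of genes measured, against -0.04 for all probe sets. They were 0.02 for Kupffer and myeloid (10), -0.29 for endothelial (6), 0.02 for stellate (6) and 0.14 for biliary markers (3). For lymphoid (7), erythroid (3) and hepatocyte markers (9) they were -0.01, 0.02 and -0.13. The biliary genes ran from -0.68 to 0.38. A median ratio of at least 0.99 was reached by 0 of 3 biliary, 5 of 7 lymphoid and 9 of 10 Kupffer and myeloid genes.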
